A study of Mus musculus with 6 samples.

Results

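The 10 genes described here encode parts of the T cell receptor complex and of its first signalling steps. They are Cd3d, Cd3e, Cd3g, Cd4, Cd8a, Cd8b1, Cd2, Cd5, Lck and Zap70, taken by gene symbol from the gene table, where all 10 were found among 17684 genes. The libraries were made from the kidneys of 50 weeks old db/db mice, which lack the working long form of the leptin receptor and become obese and diabetic, on the strain labelled C57 BLKS/L. Both groups carried the db/db genotype. The Db group (3 libraries) was given saline and the Db + Ato10 group (3 libraries) atorvastatin at 10 mg/kg per day, in both cases for 40 weeks. The protocol field names atorvastatin for all 6 libraries, so the groups were taken from the treatment label, which separates saline from atorvastatin. The study's methods describe male mice only, and no library of a non-diabetic mouse was analysed here, so the values compare treated with untreated diabetic kidneys. Nothing in the labels says that each library came from a different mouse, and p-values measure the spread between these libraries.

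T cells recognise peptides held by MHC molecules through a variable receptor that cannot signal by itself. The CD3 chains beside it carry the signal into the cell, the co-receptors CD4 and CD8 bind class II and class I MHC and bring in the kinase LCK, and LCK phosphorylates the CD3 chains so that the kinase ZAP-70 can dock and be activated. In the kidney, T cells are a minor resident population of the interstitium and are known to accumulate there in many forms of chronic renal disease. In RNA from whole tissue, more or fewer T cells and more or less RNA per T cell cannot be told apart.

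The total count ranged from 11381678 to 14667909 per library, and 3 counts, used here as the floor for a gene at 0, corresponded to 0.198 to 0.26 CPM, the counts of a gene scaled to the size of its library. A library went against the description of the animals. Db replicate 1 had 2 counts over the 4 Y-linked genes Ddx3y, Uty, Eif2s3y and Kdm5d, whereas the other libraries had 1419 to 2116, so it did not match male mice. A library also stood apart by its expression profile. The first principal component of log2 CPM held 71.1% of the variance, and Db + Ato10 replicate 1 lay at 107 on it, Db + Ato10 replicate 2 at 46.1 and Db + Ato10 replicate 3 at -18.8, beside Db replicate 2 at -26.9 and the other Db libraries at -55.4 and -52. The log2 fold changes of the 10 genes are therefore also given with each of Db replicate 1 and Db + Ato10 replicate 1 left out, and those of most other genes named for their fold change without Db + Ato10 replicate 1.

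The 10 genes together were high in 2 of the 3 Db + Ato10 libraries and low in the third. Their summed level was 32.3 CPM in Db + Ato10 replicate 1 (491 counts; 95% exact Poisson interval 29.5 to 35.3), 24.5 CPM in replicate 2 (363 counts; 22.1 to 27.2) and 5.12 CPM in replicate 3 (65 counts; 3.95 to 6.53). In the Db group it was 3.58 CPM in replicate 1 (45 counts; 2.61 to 4.78), 9.54 CPM in replicate 2 (110 counts; 7.84 to 11.5) and 4.04 CPM in replicate 3 (50 counts; 3 to 5.32). Db replicate 2 thus already carried these transcripts at 2.36 times the higher of the other Db libraries, and its interval lay above that of Db + Ato10 replicate 3. These intervals cover counting error only. Db + Ato10 replicates 1 and 2 were above every Db library for 10 of the 10 genes, as for 26% of all genes with at least 1 count, and Db + Ato10 replicate 3 was below Db replicate 2 for 10 of the 10, as for 48.6% of all. Both orders held together for 10.2% of all genes. For Cd2, Db + Ato10 replicate 3 and Db replicate 2 both had 2 counts, under the floor. Their order in CPM for that gene rests on library size. Db replicate 2 was the highest Db library for 9 of the 10, the exception being Cd2, and for 36.7% of all genes. The groups therefore overlapped for every one of the 10 genes (0 of 10 without overlap), against 10.7% of all genes with at least 1 count whose Db + Ato10 libraries were all higher.

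**Figure D1:**
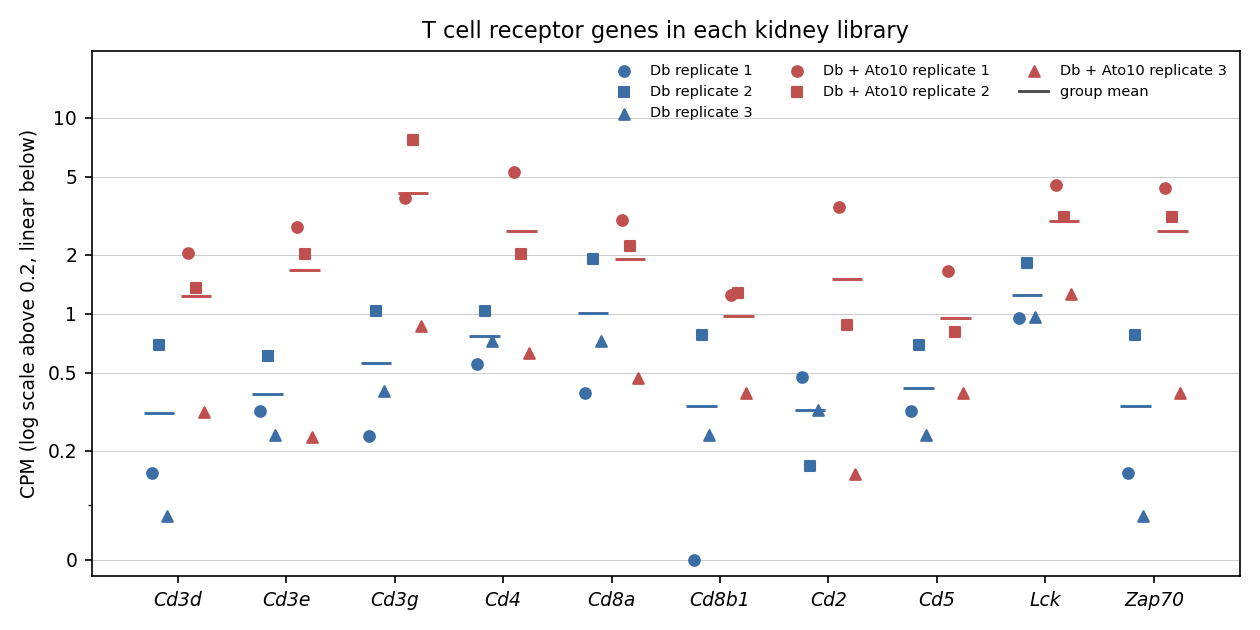
Level of each T cell receptor gene in CPM (vertical axis, logarithmic above 0.2 and linear below) in the 6 kidney libraries, with Db in blue, Db + Ato10 in red, a marker shape for each replicate number and a horizontal line at each group mean. For all 10 genes the circle and square of Db + Ato10 lie above every Db point, and the red triangle of Db + Ato10 replicate 3 lies below the blue square of Db replicate 2. For Cd2 that triangle and that square both stand for 2 counts, under the floor of 3 counts.

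Of the 10 genes, 4 reached the count minimum of the main test, 10 counts in at least 3 libraries. These were Cd3g, Cd4, Cd8a and Lck, and the other 6 had fewer than 3 libraries at that level. Lck reached it in all 6 libraries, and Cd3g, Cd4 and Cd8a in Db + Ato10 libraries and Db replicate 2 alone, so these 4 do not stand for all 10. With edgeR's quasi-likelihood test and Benjamini-Hochberg adjustment over 13679 genes, 0 of the 4 were called at a fold change over 1.5 and an adjusted p under 0.05, and the test called 0% of all genes. At an unadjusted p under 0.05, 1 of the 4 was higher in Db + Ato10, Cd3g, against 11.2% of all tested genes. Without the count minimum, so that all 10 had a value, 3 of 10 were higher at that threshold, Cd3e, Cd3g and Zap70, against 10.9% of 17672 genes, and the adjusted p ranged from 0.247 to 0.562. Of all 13679 genes, 2314 were at an unadjusted p under 0.05, 1533 higher and 781 lower. DESeq2 on the same genes called Cd3g alone of the 4, against 5.19% of genes called as higher; over 12 alternatives run on Cd3g with the count minimum the adjusted p ranged from 0.0284 to 0.588. The exact permutation test of a single gene could not have passed the threshold, since 3 libraries against 3 give a smallest two-sided p of 0.1.

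The fitted log2 fold change (Db + Ato10 over Db) was above 0 for all 10 genes, with a median of 1.85 without the count minimum, where the median over all genes was 0.02. For the 4 genes over the minimum the median was 1.51, beside -0.0063 over all tested genes. Without Db replicate 1, the library that lacked Y-linked counts, the median of the 10 was 1.60 and 0 of 10 were at an unadjusted p under 0.05, against 5.46% of all genes in that fit. Without Db + Ato10 replicate 1 the median was 1.05 and 1 of 10, Cd3g, was under it, against 8.01%. Db + Ato10 replicate 3 moved these counts most. Without it and without the count minimum, 7 of the 10 were at an unadjusted p under 0.05 against 16.2% of all genes. All 10 then had groups that did not overlap, against 24.7%. This restates that Db + Ato10 replicates 1 and 2 were above every Db library. In that fit 3 were called, Cd3e, Cd3g and Zap70, with adjusted p of 0.0403, 0.0347 and 0.0495 in edgeR, against 5.96% of all genes. Over the alternatives run without the count minimum, the adjusted p ranged from 0.0403 to 0.63 for Cd3e, from 0.0302 to 0.604 for Cd3g and from 0.0495 to 0.604 for Zap70. With the count minimum, the fit without Db + Ato10 replicate 3 called Cd3g, again with 5.96% of all genes called as higher. Without Db replicate 2 and the count minimum, 4 of 10 were at an unadjusted p under 0.05 against 8.22%, and 6 of 10 had groups that did not overlap against 17.8%. Fits that leave out a library and also drop the count minimum were added after the values were seen.

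Single genes moved unequally when Db + Ato10 replicate 1 was left out. Without the count minimum the log2 fold change went from 1.73 to 0.77 for Cd4, from 0.90 to 0.43 for Cd8a, from 2.15 to 0.66 for Cd2, from 1.16 to 0.53 for Cd5 and from 1.22 to 0.80 for Lck. It went from 1.96 to 1.42 for Cd3d, from 2.07 to 1.53 for Cd3e, from 2.92 to 2.36 for Zap70, from 1.5 to 1.31 for Cd8b1 and from 2.86 to 2.92 for Cd3g. Without Db replicate 1 it was 1.65 for Cd3d, 1.95 for Cd3e, 2.50 for Cd3g, 1.55 for Cd4, 0.52 for Cd8a, 0.91 for Cd8b1, 2.53 for Cd2, 1.00 for Cd5, 1.07 for Lck and 2.58 for Zap70. Without Db replicate 2 it was 3.24 for Cd3d, 2.51 for Cd3e, 3.63 for Cd3g, 1.99 for Cd4 and 1.72 for Cd8a. In the same fit it was 2.90 for Cd8b1, 1.86 for Cd2, 1.70 for Cd5, 1.59 for Lck and 4.33 for Zap70. For Cd3g it was 2.08 without Db + Ato10 replicate 2.

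Cd3g (gene ID 12502), the gamma chain, had 59 counts (3.89 CPM), 114 counts (7.7 CPM) and 11 counts (0.866 CPM) in Db + Ato10 replicates 1, 2 and 3, and 3 counts (0.238 CPM), 12 counts (1.04 CPM) and 5 counts (0.404 CPM) in Db replicates 1, 2 and 3. Db + Ato10 replicates 1 and 2 were far above the rest, and the groups overlapped because Db replicate 2 exceeded Db + Ato10 replicate 3. The means were 4.15 ± 3.42 CPM (SD, n = 3) and 0.561 ± 0.423 CPM (SD, n = 3). The edgeR log2 fold change was 2.89 with a standard error of 0.90, an unadjusted p of 0.0161 and an adjusted p of 0.239. DESeq2 gave a log2 fold change of 2.90 and an adjusted p of 0.0284. Without Db + Ato10 replicate 2, its highest library, the edgeR log2 fold change was 2.12 with an unadjusted p of 0.052.

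Cd3e (gene ID 12501), the epsilon chain, which pairs with either the gamma or the delta chain, had 42, 30 and 3 counts in Db + Ato10 replicates 1, 2 and 3 and 4, 7 and 3 counts in Db replicates 1, 2 and 3. In CPM these were 2.77, 2.03 and 0.236 against 0.318, 0.607 and 0.242, so that Db + Ato10 replicate 3 and Db replicate 3, both at 3 counts, were level at the floor. Without the count minimum its log2 fold change was 2.07, with an unadjusted p of 0.0486 and an edgeR adjusted p of 0.315. Cd3d (gene ID 12500), the delta chain, had 31, 20 and 4 counts in Db + Ato10 and 2, 8 and 1 counts in Db, or 2.04, 1.35 and 0.315 CPM against 0.159, 0.693 and 0.0808 CPM. The same 2 Db + Ato10 libraries were high, Db replicate 2 was again the highest of its group, and Db replicate 3 was the lowest. The log2 fold change was 1.96, with an unadjusted p of 0.0732 and an edgeR adjusted p of 0.355.

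Within the CD3 genes, the share of Cd3g varied between libraries. It made up 69.5% of the counts of the 3 CD3 genes in Db + Ato10 replicate 2 (114 of 164; 95% Wilson interval 62.1 to 76) and 44.7% in Db + Ato10 replicate 1 (59 of 132; 36.5 to 53.2), and these intervals, which cover counting error only and compare single libraries, did not meet. The share was 61.1% in Db + Ato10 replicate 3 (38.6 to 79.7), 33.3% in Db replicate 1 (12.1 to 64.6), 44.4% in Db replicate 2 (27.6 to 62.7) and 55.6% in Db replicate 3 (26.7 to 81.1), so that the groups overlapped and the intervals of the low libraries were wide. A difference between the groups was not tested. The share was chosen after the values were seen, and a share of counts is not a share of molecules, since the genes differ in length.

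The co-receptors were higher in the same libraries. Cd4 (gene ID 12504), the co-receptor of helper and regulatory T cells, had 80, 30 and 8 counts (5.27, 2.03 and 0.63 CPM) in Db + Ato10 replicates 1, 2 and 3. In Db replicates 1, 2 and 3 it had 7, 12 and 9 counts (0.556, 1.04 and 0.727 CPM). Db + Ato10 replicate 3 lay inside the Db range, and replicate 1 was well above replicate 2. The log2 fold change was 1.77 with a standard error of 0.77, an unadjusted p of 0.0566 and an edgeR adjusted p of 0.309, and without the count minimum it was 1.73 with all libraries and 0.77 without Db + Ato10 replicate 1. Some dendritic cells of mice also carry Cd4, so it is less particular to T cells than the CD3 genes.

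Cd8a (gene ID 12525), the alpha chain of the co-receptor of cytotoxic T cells, had 46, 33 and 6 counts (3.03, 2.23 and 0.473 CPM) in Db + Ato10 and 5, 22 and 9 counts (0.397, 1.91 and 0.727 CPM) in Db. Of the 10 genes it had the smallest log2 fold change without the count minimum, 0.90. With the minimum it was 0.93 with a standard error of 0.80 and an edgeR adjusted p of 0.535. Db replicate 2 came close to the high Db + Ato10 libraries. Cd8b1 (gene ID 12526), the beta chain, had 19, 19 and 5 counts (1.25, 1.28 and 0.394 CPM) in Db + Ato10 and 0, 9 and 3 counts in Db. It was the only one of the 10 genes at 0 in a library, Db replicate 1, where the floor of 3 counts allows up to 0.238 CPM, and Db replicates 2 and 3 had 0.78 and 0.242 CPM. Without the count minimum its log2 fold change was 1.5, with an edgeR adjusted p of 0.475. The difference between the groups was therefore not detectable for either CD8 chain with these libraries.

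The balance of the co-receptors did not separate the groups. Cd4 held 63.5% of the counts of Cd4 and Cd8a in Db + Ato10 replicate 1 (95% Wilson interval 54.8 to 71.4), 47.6% in replicate 2 (35.8 to 59.7) and 57.1% in replicate 3 (32.6 to 78.6). In Db it held 58.3% in replicate 1 (32 to 80.7), 35.3% in replicate 2 (21.5 to 52.1) and 50% in replicate 3 (29 to 71). The groups overlapped, and the share was lowest in Db replicate 2, the Db library that carried most T cell receptor transcripts.

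Among the accessory receptors, Cd2 (gene ID 12481), an adhesion receptor of T and NK cells that binds CD48 in mice, departed from the common pattern. It had 53 counts (3.49 CPM) in Db + Ato10 replicate 1, 13 counts (0.878 CPM) in replicate 2 and 2 counts (0.158 CPM) in replicate 3, and 6, 2 and 4 counts (0.477, 0.173 and 0.323 CPM) in Db replicates 1, 2 and 3. It was high in Db + Ato10 replicate 1 above all, and Db replicate 2 was here the lowest of its group, at counts too small to order the Db libraries. The log2 fold change without the count minimum was 2.15 (edgeR adjusted p 0.359), and 0.66 without Db + Ato10 replicate 1. Cd5 (gene ID 12507), which restrains receptor signalling and is also carried by a subset of B cells, had 25, 12 and 5 counts (1.65, 0.81 and 0.394 CPM) in Db + Ato10 and 4, 8 and 3 counts (0.318, 0.693 and 0.242 CPM) in Db. Its highest Db library, at 0.693 CPM, lay close to Db + Ato10 replicate 2 at 0.81 CPM, and its log2 fold change was 1.16, with an edgeR adjusted p of 0.437.

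The kinases differed in how much signal the Db libraries already held. Lck (gene ID 16818) had at least 10 counts in every library, with 69, 46 and 16 counts (4.54, 3.11 and 1.26 CPM) in Db + Ato10 and 12, 21 and 12 counts (0.954, 1.82 and 0.969 CPM) in Db. Db + Ato10 replicate 3 was above Db replicates 1 and 3 and below Db replicate 2. The log2 fold change was 1.26 with a standard error of 0.55, an unadjusted p of 0.0574 and an edgeR adjusted p of 0.311. Zap70 (gene ID 22637) had 67, 46 and 5 counts (4.41, 3.11 and 0.394 CPM) in Db + Ato10 and 2, 9 and 1 counts (0.159, 0.78 and 0.0808 CPM) in Db. Its 2 high libraries resembled those of Lck in CPM, but its Db libraries were lower, and its log2 fold change without the count minimum was the largest of the 10 genes in that fit, 2.92, with an unadjusted p of 0.0269 and an edgeR adjusted p of 0.263.

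Compared per length, in FPKM, the order of the genes differed between the groups. In Db, Cd3g at 0.65 ± 0.495 FPKM and Lck at 0.643 ± 0.266 FPKM (SD, n = 3) were the most abundant and Zap70 at 0.163 ± 0.188 FPKM the least. In Db + Ato10, Cd3g at 4.85 ± 4 FPKM was followed by Zap70 at 1.58 ± 1.23, Cd2 at 1.57 ± 1.84 and Lck at 1.56 ± 0.876 FPKM, and Cd5 at 0.507 ± 0.351 FPKM was the lowest. In Db + Ato10 neighbours in the order differed by less than the larger of their SDs. In Db the step from Lck down to Cd8a at 0.34 ± 0.274 FPKM exceeded both SDs and no other step did.

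The transcript table listed 18 transcripts of the 10 genes, of which 5 reached the count minimum. With edgeR, 0 of the 5 were called and the test called 0% of all 30175 transcripts, 2471 of which were at an unadjusted p under 0.05. DESeq2 called 889 transcripts, 0 of them from these genes. Of the 5, the Cd3g transcript alone was at an unadjusted p under 0.05 (0.0316, edgeR adjusted p 0.562), with all counts of the gene. For Lck the estimated counts moved between transcripts from library to library. Of its 3 transcripts, 1 took 68.83 counts in Db + Ato10 replicate 1 and 0 in replicate 3, where another took 16, so isoforms of Lck could not be compared at this depth.

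Cd3g and Cd3d are neighbours on opposite strands, with starts 1355 bases apart in RefSeq GRCm38.p6, and Cd3e lies beside them. The upstream sequences of these 3 genes are shown because the genes were high in the same libraries. They were copied from RefSeq promoter windows of GRCm38.p6, which gave windows for 7 of the 10 genes, and cover the bases from 250 to 61 before each start, 5′ to 3′ on the strand of the gene. Capitals mark matches, on either strand, to GGAAG, the core bound by ETS factors, to TGTGGT, bound by RUNX factors, or to TATAAA, the TATA box.
Cd3g, chr9:44980492-44980681, minus strand: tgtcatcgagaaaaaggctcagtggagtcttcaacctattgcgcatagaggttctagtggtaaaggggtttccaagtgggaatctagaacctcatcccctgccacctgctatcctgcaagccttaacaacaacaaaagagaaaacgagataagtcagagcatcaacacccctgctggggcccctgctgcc
Cd3d, chr9:44981536-44981725, plus strand: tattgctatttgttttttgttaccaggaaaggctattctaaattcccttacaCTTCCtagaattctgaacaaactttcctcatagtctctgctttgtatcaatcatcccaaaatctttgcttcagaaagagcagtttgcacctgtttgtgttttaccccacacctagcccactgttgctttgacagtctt
Cd3e, chr9:45009672-45009861, minus strand: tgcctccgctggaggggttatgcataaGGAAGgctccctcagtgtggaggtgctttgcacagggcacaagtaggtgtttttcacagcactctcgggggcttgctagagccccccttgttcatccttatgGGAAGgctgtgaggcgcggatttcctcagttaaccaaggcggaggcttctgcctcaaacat
The window of Cd3e held 2 matches to GGAAG, that of Cd3d 1 and that of Cd3g 0, and none of the 3 held TGTGGT or TATAAA, so no matches overlapped. Of all 32851 windows of the same 190 bases, 52.9% held GGAAG, 11% TGTGGT and 8.73% TATAAA, and a match describes the letters only.

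The rest of the receptor pathway was read from 57 other genes, of which 51 had counts. With edgeR and the count minimum, 12 of 32 tested were higher and 0 lower at an unadjusted p under 0.05, where 11.2% of all tested genes were higher, 0 were called, and the median log2 fold change was 0.62. Without the count minimum 21 of 51 were higher and 0 lower, against 10.9% of all genes higher, and DESeq2 called 10 as higher, against 5.55% of all genes with an adjusted p in that fit. Cd247, the zeta chain that carries most of the receptor's signalling motifs, had 2.24, 2.9 and 1.02 CPM in Db + Ato10 replicates 1, 2 and 3 and 0.397, 0.433 and 0.727 CPM in Db replicates 1, 2 and 3. Unlike all 10 genes above, its groups did not overlap, since Db + Ato10 replicate 3 exceeded every Db library. Its log2 fold change was 1.97 with a standard error of 0.52 and an edgeR adjusted p of 0.239. The DESeq2 adjusted p was 0.0437 with the count minimum and 0.0512 without it. Cd247 reached that minimum through the Db + Ato10 libraries alone, with 5.09, 5 and 8.76 counts in Db. The value with the minimum thus rests on a filter that the difference itself decided. Without Db + Ato10 replicate 1 and the count minimum the log2 fold change was 1.89. The receptor's own constant regions (Trac, Trbc1, Trbc2, Trdc, Trgc1 and Trgc2) were not analysed here.

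With the count minimum, the largest log2 fold changes in the pathway belonged to signalling proteins that other leukocytes share. Lcp2 (SLP-76) had 56.9, 10.9 and 1.97 CPM in Db + Ato10 and 0.715, 2.08 and 1.37 CPM in Db, with a log2 fold change of 4.07 (edgeR adjusted p 0.239, DESeq2 adjusted p 0.003). Vav1, an exchange factor of blood cells, had 59.7, 12.8 and 2.36 CPM against 1.03, 3.29 and 1.62 CPM and a log2 fold change of 3.66 (edgeR adjusted p 0.239, DESeq2 adjusted p 0.00657). Fyb, an adaptor that also serves platelets and myeloid cells, had 117, 23.9 and 6.3 CPM against 2.78, 9.02 and 4.36 CPM and a log2 fold change of 3.19 (edgeR adjusted p 0.243, DESeq2 adjusted p 0.0134). In these genes Db + Ato10 replicate 1 was far above replicate 2, and without it and the count minimum the log2 fold changes were 2.21 for Lcp2, 1.93 for Vav1 and 1.48 for Fyb. It was also the highest library for 8 of the 10 T cell receptor genes, and replicate 2 for Cd3g and Cd8b1. By role, the summed level of the CD3 chains was 8.69, 11.1 and 1.42 CPM in Db + Ato10 replicates 1, 2 and 3 and 0.715, 2.34 and 0.727 CPM in Db replicates 1, 2 and 3. In the same order it was 9.55, 5.54 and 1.5 against 0.954, 3.73 and 1.7 CPM for the co-receptors, 5.14, 1.69 and 0.551 against 0.795, 0.867 and 0.565 CPM for the accessory receptors, and 8.96, 6.21 and 1.65 against 1.11, 2.6 and 1.05 CPM for the kinases. The proximal adaptors and enzymes summed to 327, 126 and 80.5 against 79.2, 87.3 and 75.9 CPM, so that for each of these roles Db + Ato10 replicate 3 lay below Db replicate 2. So did the co-stimulatory receptors, at 15.6, 7.23 and 1.89 against 0.636, 2.25 and 1.62 CPM. The sum of the inhibitors and inhibitory receptors went the other way, at 679, 317 and 230 against 207, 212 and 212 CPM. Dgkz made up much of that sum, at 125, 93.7 and 75 against 66.9, 64 and 83.4 CPM. Single genes of this role lay on either side of Db replicate 2 in Db + Ato10 replicate 3. Csk was above it, at 41.8 against 39.1 CPM, and Ptpn22 and Pag1 below it, at 3.23 against 3.55 and 7.88 against 9.71 CPM. The sum therefore does not stand for the role. Downstream enzymes and transcription factors, which most cells use, had a median of 0.24 in log2 fold change without the count minimum, and 2 of 11 were higher at an unadjusted p under 0.05, against 10.9% of all genes.

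Pdcd1, Icos and Ctla4, inducible receptors of activated T cells, were below the count minimum. Outside the rule for named genes and chosen after their values were seen, Pdcd1 (PD-1) had 2.24, 1.35 and 0.236 CPM in Db + Ato10 and 0, 0.0867 and 0 CPM in Db, and Icos 4.61, 1.76 and 0.0788 CPM against 0.159, 0.26 and 0.162 CPM. Ctla4 had 8.63 CPM in Db + Ato10 replicate 1 and 0.27 and 0.315 CPM in replicates 2 and 3, against 0, 0.173 and 0 CPM. Db + Ato10 replicate 1 was the highest library for each of them. Without the count minimum the log2 fold change was 5.54 for Ctla4, 5.10 for Pdcd1 and 3.39 for Icos, with edgeR adjusted p of 0.251, 0.245 and 0.258. The first 2 were the largest of the pathway in that fit, but they rest on Db counts of 0, 2 and 0 for Ctla4 and 0, 1 and 0 for Pdcd1, all under the floor of 3 counts, so their size is not well set. With each library left out they ran from 2.21 to 8.36 for Ctla4, which had 131 counts in Db + Ato10 replicate 1 and 4 in each of the others of its group, and from 4.43 to 7.11 for Pdcd1. Icos was at 2.2 without Db + Ato10 replicate 1. DESeq2 without the count minimum called Pdcd1 (adjusted p 0.0182) but not Icos (0.0723), and gave no p for Ctla4.

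Ligands that other cells present to T cells were tested for 7 of 10 genes, and 6 were higher and 0 lower at an unadjusted p under 0.05, against 11.2% of all tested genes higher, a share that also applies to the lists below. H2-Ab1, an MHC class II chain, had 349, 1106 and 127 CPM in Db + Ato10 and 114, 126 and 98.4 CPM in Db (log2 fold change 2.22, edgeR adjusted p 0.239, DESeq2 adjusted p 0.0221). It was highest in Db + Ato10 replicate 2, as Cd3g was. Cd274 (PD-L1) had 101, 9.72 and 4.73 CPM against 3.89, 4.33 and 5.9 CPM (log2 fold change 3.04, edgeR adjusted p 0.271, DESeq2 adjusted p 0.0319), and Cd48, the ligand of CD2, 17.9, 7.9 and 1.18 CPM against 0.397, 1.82 and 2.1 CPM (log2 fold change 2.64, edgeR adjusted p 0.272, DESeq2 adjusted p 0.0636). Both were highest in Db + Ato10 replicate 1, and for both Db + Ato10 replicate 3 lay inside the Db range. Without Db + Ato10 replicate 1 and the count minimum the log2 fold change was 0.61 for Cd274, 1.65 for Cd48 and 2.43 for H2-Ab1, and without Db + Ato10 replicate 2 that of H2-Ab1 was 1.07.

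Of 19 genes that mark T cell subsets, 12 were tested, 5 were higher and 0 lower at an unadjusted p under 0.05. Thy1 had 36.4, 17.4 and 4.1 CPM in Db + Ato10 and 0.954, 2.86 and 2.75 CPM in Db (log2 fold change 3.14, edgeR adjusted p 0.239, DESeq2 adjusted p 0.00301), and Il7r 11.3, 3.85 and 1.18 CPM against 0.477, 1.73 and 0.162 CPM (log2 fold change 2.79, edgeR adjusted p 0.268, DESeq2 adjusted p 0.0702). Fibroblasts of some tissues also carry Thy1, so it does not mark T cells alone. Of 12 NK and cytotoxic genes, 2 were tested and 1 was higher, Nkg7, with 3.62, 1.82 and 0.709 CPM against 0.238, 0.954 and 0.323 CPM (log2 fold change 2.03, edgeR adjusted p 0.272, DESeq2 adjusted p 0.148). The 12 summed to 13.2, 7.23 and 2.28 CPM in Db + Ato10 and 1.75, 4.68 and 2.02 CPM in Db, with Db replicate 2 again the highest of its group. Without Db + Ato10 replicate 1 and the count minimum the log2 fold change was 2.29 for Thy1, 1.67 for Il7r and 1.32 for Nkg7.

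Several marker lists of other cell types were high in the same libraries as the T cell receptor genes. The macrophage list (9 of 9 tested, 9 higher at an unadjusted p under 0.05, most abundant gene Cd14) summed to 2941, 787 and 222 CPM in Db + Ato10 and 114, 184 and 142 CPM in Db. The neutrophil list (3 of 6 tested, 3 higher, most abundant gene S100a9) summed to 10215, 79.5 and 8.43 CPM against 4.45, 7.02 and 3.15 CPM. Db + Ato10 replicate 1 was at 3.74 times the level of replicate 2 in the macrophage list and 128 times in the neutrophil list, but at 1.32 times in the 10 T cell receptor genes.

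The B cell list (1 of 8 tested, 1 higher, most abundant gene Cd79a) summed to 26.7, 8.91 and 2.21 CPM in Db + Ato10 and 0.636, 2.95 and 1.29 CPM in Db. The plasma cell list (3 of 4 tested, 2 higher, most abundant gene Jchain, Tnfrsf17 at 0 in every Db library) summed to 324, 97.6 and 11.4 CPM against 5.72, 20 and 6.54 CPM. For both lists Db replicate 2 was the highest Db library. The dendritic cell list (4 of 7 tested, 1 higher, most abundant gene Zbtb46) summed to 21.9, 23.3 and 15 CPM against 15.3, 17 and 12 CPM. Its genes moved in different directions, and Zbtb46 made up much of the sum, at 10.5, 9.59 and 8.03 against 11.2, 11.4 and 7.92 CPM. Outside the rule for named genes and chosen after their values were seen, Itgax had 7.97, 11.3 and 4.65 against 0.636, 2.25 and 1.62 CPM (log2 fold change 2.41, edgeR adjusted p 0.239, DESeq2 adjusted p 0.00175). Cd209a had 0 counts in every Db + Ato10 library and 2, 3 and 4 in Db, near the floor.

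Lymphoid tissue stroma genes (3 of 6 tested, 1 higher, most abundant gene Cxcl13) summed to 167, 18.9 and 7.09 CPM against 5.88, 12.7 and 11.3 CPM. Cxcl13 was 152 CPM of the sum in Db + Ato10 replicate 1, the median log2 fold change of the 3 tested genes was -0.058, and without the count minimum 3 of the 5 genes with counts were above 0 and 2 below, so the sum does not stand for the list. Thymocyte genes stayed near 0, with Dntt and Ptcra, the 2 of 4 analysed, at 1 count in all in the Db libraries and at 5, 1 and 1 counts in Db + Ato10 replicates 1, 2 and 3. The erythroid list (5 of 5 tested, 0 at an unadjusted p under 0.05, most abundant gene Hba-a1) summed to 1205, 226 and 532 CPM against 929, 829 and 3431 CPM, and so did not follow the T cell receptor genes.

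The squamous epithelium list (3 of 6 tested, 3 higher, most abundant gene Krt5, with Krt6a, Dsg3 and Krt13 at 0 in every Db library) summed to 108, 56.9 and 18.4 CPM in Db + Ato10 and 1.27, 1.13 and 0.969 CPM in Db, so all 3 Db + Ato10 libraries lay above the Db range. Krt5 had 5, 1 and 5 counts in Db, so it reached the count minimum through the Db + Ato10 libraries alone. Without the count minimum 3 of the 6 genes were higher, against 10.9% of all genes. The kidney list (8 of 8 tested, 0 higher and 2 lower, most abundant gene Umod) summed to 5623, 4844 and 11746 CPM against 13884, 12633 and 13453 CPM. The labelled tissue was thus present in every library, at its lowest level in the 2 libraries with most T cell receptor transcripts. The part of these other cell types in the difference of the T cell receptor genes was not tested.

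**Figure D2:**
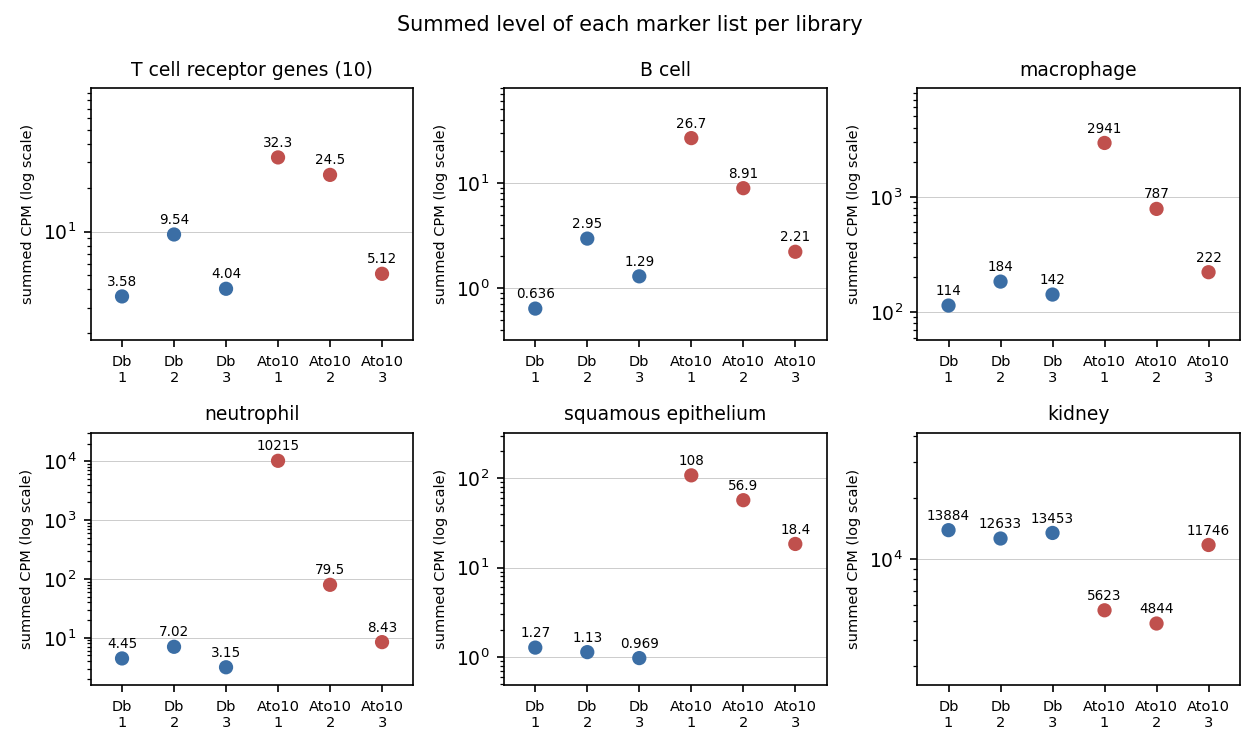
Summed CPM of the 10 T cell receptor genes and of 5 marker lists (vertical axes, logarithmic, with a scale of their own in each panel) in each library, Db in blue and Db + Ato10 in red, with the value beside each point. The T cell receptor genes are at 32.3 and 24.5 CPM in Db + Ato10 replicates 1 and 2, where the neutrophil list is at 10215 and 79.5 CPM, and the kidney list is lowest in the same libraries.

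Read against Ptprc (CD45), which nearly all leukocytes carry, the libraries fell in another order. The summed counts of the 10 genes were 23.2% of the Ptprc counts in Db + Ato10 replicate 1, 91.2% in replicate 2 and 50.4% in replicate 3, and 73.8%, 93.2% and 83.3% in Db replicates 1, 2 and 3. Ptprc itself was at 140, 26.9 and 10.2 CPM in Db + Ato10 and 4.85, 10.2 and 4.85 CPM in Db (log2 fold change 3.15, edgeR adjusted p 0.239, DESeq2 adjusted p 0.00737, and 1.47 in log2 fold change without Db + Ato10 replicate 1 and the count minimum). The groups overlapped in the ratio, which was lowest where T cell receptor counts were highest, and was no higher in any Db + Ato10 library than in Db replicate 2. The ratio was chosen after the values were seen and has no test.

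The tested genes most like the mean profile of Cd3g, Cd4, Cd8a and Lck over the 6 libraries were Cpne5, LOC108167440, Slc9a9, Il2rb, Gpx7, Itga4, Ccnb2, Kifc1, C1ra and Apobec1. Likeness was measured as the mean absolute difference of centred log2 CPM, which ran from 0.11 for Cpne5 to 0.17 for Apobec1. The closest, Cpne5, had 2.57, 2.09 and 0.473 CPM in Db + Ato10 and 0.318, 1.04 and 0.323 CPM in Db. Il2rb, a receptor chain for interleukins of T and NK cells, had 7.05, 3.98 and 1.02 CPM against 0.636, 1.91 and 0.727 CPM.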

How the data were processed

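Kidney RNA of 6 libraries was sequenced on a BGISEQ-500 after poly(A) selection or rRNA depletion, the labels giving both. The submitters' processing notes name HISAT, Bowtie2 2.2.5 and the build mm9, with no role for each. The counter was not given in the sources used here, and neither was strandedness. The authors deposited expected counts, estimated reads that need not be whole (91.3% of the gene values were), together with FPKM and TPM of the same genes and transcripts. TPM values deposited by the authors were not used.

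Expected counts were rounded and tested in R 4.3.3 with edgeR 4.0.16 (TMM, glmQLFit and glmQLFTest, Benjamini-Hochberg adjustment) on genes reaching 10 counts in 3 or more libraries, calling a fold change over 1.5 at an adjusted p under 0.05. DESeq2 1.42.0 and limma 3.58.1 gave alternatives, the latter by voom or on log2(FPKM + 1) and log2(FPKM + 0.1). Scripts were tested on simulated data. CPM were TMM-scaled, with a prior count of 2 on the log2 scale, and tables were made with Python 3.11.15. Intervals were Wilson or exact Poisson at 95%.

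The 10 genes and the marker lists were chosen with earlier results of these data known. All 10 genes are named. Of the other lists, the genes at an unadjusted p under 0.05 with the 3 largest rises and 3 largest falls are named, together with Cd247, and, as most alike, the 10 tested genes with the smallest mean absolute difference from the profile of the tested members. In the cell type marker lists only the most abundant gene and those at 0 are named. Genes low in Db can reach the count minimum through the Db + Ato10 libraries alone. The numbers tested and higher in each list therefore depend on that minimum. A gene of the T cell subset list that the rule names is not reported here.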

Additional observations from a re-analysis of the deposited data

How the results depend on the processing

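With the count minimum for the 4 members that reach it and without it for the other 6, the log2 fold change of single members was above 0 in 119 of 119 values under alternatives, and 4 of these passed the adjusted p (Cd3g with DESeq2, and Cd3e, Cd3g and Zap70 without Db + Ato10 replicate 3). Without the minimum Cd3g passed it in the same 2 alternatives. The median log2 fold change of the tested members was 1.51 and ran from 0.56 to 2.64 under the alternatives. Each move was under 1.18, the larger of the group SDs of the median log2 CPM of these members per library, a wide tolerance. It was lowest on the log2(FPKM + 1) scale, 0.56, where a pseudocount of 1 exceeds the mean level of every member in Db, and it ran from 1.35 to 2.64 with each library left out, where the tested members differ between fits. Over all 10 members, without the count minimum, it ran from 1.05 to 2.30 with each library left out, beside 1.85 with all libraries and 0.65 on log2(FPKM + 1).

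The number of members called was 0, and 1 with DESeq2. With each library left out it ran from 0 to 1 with the count minimum, and from 0 to 3 when the minimum was also dropped, an alternative added after the values were seen. The number at an unadjusted p under 0.05 was 1, but 3 with DESeq2, 0 with limma-voom and 3 without the count minimum, which adds 6 members. With each library left out it ran from 0 to 3 with the count minimum and from 0 to 7 without it, and members whose groups did not overlap from 0 to 4 and from 0 to 10, against 0 in all 6 libraries. The highest values without the minimum all came from leaving out Db + Ato10 replicate 3. Other pathway genes at an unadjusted p under 0.05 numbered 12, but 5 with limma-voom, 5 on log2(FPKM + 1), 7 on log2(FPKM + 0.1) and 21 without the count minimum. They ran from 5 to 15 with each library left out. Where no construction shows it, the cause was not tested. With at least 10 counts in every library only Lck was left.

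Libraries of the 2 groups share replicate numbers. The correlations of same-numbered deviations from the group means were -0.151, 0.0613 and 0.208, and those of differently numbered libraries ran from -0.374 to 0.311. With 3 libraries per group these values cannot decide whether same-numbered libraries were paired, so the main fit did not pair them. With the replicate block, 0 members were called, 1 was at an unadjusted p under 0.05, the median was 1.27 and 9 other pathway genes were under it. Counts of 0 to 22 per member in the Db libraries limit every fold change of a member given here.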
